A study of Mus musculus with 4 samples.

Results

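The neurotrophin genes described here were 4 ligands, *Bdnf*, *Ntf3*, *Ntf5* and *Gdnf*, and 4 receptors, *Ntrk2*, *Ntrk3*, *Ngfr* and *Gfra1*. They were found by name, through the RefSeq transcript accession that the array design gives each probe. All 8 genes were on the array and none was lost to a filter, so that they made up 8 of the 45604 genes tested and 14 of the 56593 non-control probes with a value on every array. RNA was taken from the septal nasal mucosa of untreated male C57BL/6J mice, which the labels call olfactory epithelium. Mice of 8 weeks (young adult) were compared with mice of 16 months (aged), and neither age carried a transgene or a deletion. Each age had 2 arrays, each hybridized with RNA pooled from 5 mice. The sources used here do not say whether the 2 pools of an age shared mice, and the methods count fewer mice per age for gene analyses than separate pools would need, so the P values below measure the spread between pools, which may be technical.

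Neurotrophins are secreted proteins that keep neurons alive, guide their processes and tune their synapses. They are made as precursors that proteases cleave, and the mature forms act through Trk receptor tyrosine kinases, whereas the p75 receptor, encoded by *Ngfr*, binds all neurotrophins and, together with sortilin, their precursors. GDNF, a ligand of another family, binds GFRα1, encoded by *Gfra1*, which signals through the kinase RET. In the olfactory mucosa, receptors of this kind are known from olfactory receptor neurons (ORNs), basal cells and the glia that ensheath the olfactory nerve.

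In the aged mucosa the level of *Ngfr*, the p75 receptor gene, fell by 27.9%. The kinase receptor genes *Ntrk2* and *Ntrk3* differed from young adult mice by −20.4% and −19.6% without passing both test criteria, and *Gfra1*, at 7.23% above young adult mice, did not share this direction. Of the 4 ligands, 0 passed the criteria by limma, and 0 had an unadjusted P below 0.05. Counted over the 8 genes, 1 of the 8 genes was lower in aged mice at P below 0.05 and a false discovery rate (FDR) below 0.25 over all genes, both by limma, against 2.33% of all 45604 genes, and 0 were higher, against 1.65% of all genes. At P below 0.05 alone, 3 of the 8 were lower, against 7.08% of all genes. The log2 difference between ages was below 0 in 7 of the 8 genes and in 48.5% of all genes.

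The promoters of the receptor gene that passed the criteria, of one that fell short of them on the FDR, and of the receptor gene whose difference had the opposite sign are shown as reference sequence, so that their base composition can be compared. They are RefSeq windows of the GRCm38.p6 assembly from 250 bases before to 50 bases after the annotated start, written 5′ to 3′ on the strand of the gene, and capitals mark the GC box GGGCGG on either strand.
*Ngfr*, chr11:95587649-95587948, minus strand: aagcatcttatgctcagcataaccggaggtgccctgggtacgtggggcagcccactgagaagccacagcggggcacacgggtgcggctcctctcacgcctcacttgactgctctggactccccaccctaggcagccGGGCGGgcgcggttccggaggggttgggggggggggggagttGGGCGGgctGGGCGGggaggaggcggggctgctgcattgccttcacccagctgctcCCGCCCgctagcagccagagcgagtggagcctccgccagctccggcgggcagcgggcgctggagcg
*Ntrk2*, chr13:58806319-58806618, plus strand: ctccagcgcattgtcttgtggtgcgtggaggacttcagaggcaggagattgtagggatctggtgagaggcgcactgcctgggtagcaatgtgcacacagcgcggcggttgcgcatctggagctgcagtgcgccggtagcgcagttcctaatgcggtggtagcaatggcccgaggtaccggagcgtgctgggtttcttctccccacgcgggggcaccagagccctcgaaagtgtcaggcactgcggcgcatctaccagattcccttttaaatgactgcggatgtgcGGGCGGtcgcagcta
*Gfra1*, chr19:58455349-58455648, minus strand: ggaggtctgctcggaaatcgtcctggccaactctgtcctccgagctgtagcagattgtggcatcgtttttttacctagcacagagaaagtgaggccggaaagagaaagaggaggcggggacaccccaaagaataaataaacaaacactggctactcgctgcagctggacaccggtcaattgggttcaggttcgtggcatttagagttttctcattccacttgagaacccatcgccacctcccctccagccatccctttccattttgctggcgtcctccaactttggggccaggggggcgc

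The *Ngfr* window held 4 GC boxes, 23 CG dinucleotides and 71.7% G and C. The *Ntrk2* window held 1 GC box, 23 CG dinucleotides and 61.3% G and C. The *Gfra1* window held 0 GC boxes, 12 CG dinucleotides and 54% G and C. Among all 32851 windows of the table, the median was 7 CG dinucleotides and 52.7% G and C, and 35.7% held at least 1 GC box. The count of CG dinucleotides in the *Ngfr* and *Ntrk2* windows was higher than in 78.5% of all windows, and that of the *Gfra1* window higher than in 60.4%. Windows were found for 6 of the 8 genes, 14 windows in all, and *Ntf5* and *Ntrk3* had no entry. The *Ntf3* windows held 1 and 2 GC boxes with 12 and 17 CG dinucleotides, and the *Gdnf* windows 0 GC boxes with 11 and 22. The *Bdnf* windows held 0 to 2 GC boxes and 2 to 13 CG dinucleotides. Whether base composition goes with the difference between ages was not tested. An EGR motif (GCGNGGGCG, found in 5.55% of all windows on either strand) and a cAMP response element (TGACGTCA, in 1.79%) were searched in the same way, and no window of the 6 genes held these letters. A TATA box (TATAAA, in 13.6% of all windows) was held by 1 of the *Gdnf* windows. The motifs describe these windows only, and RNA levels on an array do not show which start was used.

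On each array, the level of a gene was the quantile-normalized intensity averaged over its probes on the log2 scale, and an intensity of one probe cannot be set against that of another. The scanner software flagged 63.1 to 76.8% of non-control spots as well above background, depending on the array. The log2 values of any pair of arrays correlated at 0.982 to 0.989 across genes, which are not independent replicates. Arrays of one age, at 0.987, were no more alike than young adult array 1 and aged array 2, at 0.989. Array 1 of each age shared a slide, whereas array 2 of each age was alone on its own slide. The median background was 67 (young adult) and 63 (aged) on the shared slide, against 32 and 39 on the other 2 arrays. The 11 markers of mature ORNs were well above background on all 4 arrays, as was the olfactory marker protein gene *Omp*. Two-sided exact permutation of 2 arrays against 2 cannot give a P below 0.333, so that the tests of single genes rest on limma, which borrows the spread of all genes.

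Among the ligands, *Bdnf* encodes the brain-derived neurotrophic factor, which binds the receptor TrkB. Its level was 75.8 and 73.0 in the young adult pools and 56.5 and 80.7 in the aged pools. The aged pools lay on either side of the young adult ones, and the lower of them was the array on which the single *Bdnf* probe was not well above background. The log2 difference was −0.14 (SE 0.21, FDR = 0.81 by limma), with a 95% interval from −0.77 to 0.49. This interval holds changes in either direction and is the widest of the 8 genes. Without aged array 1, the log2 difference was 0.12.

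*Ntf3* encodes neurotrophin 3, the main ligand of TrkC. Its level was 1248 and 1208 in the young adult pools and 1137 and 1216 in the aged pools. The groups overlapped, since aged array 2 lay between both young adult arrays. The log2 difference was −0.06 (SE 0.08, FDR = 0.788 by limma), with a 95% interval from −0.31 to 0.19, which is narrow beside that of *Bdnf*.

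*Ntf5* encodes neurotrophin 4/5, a further ligand of TrkB. Its level was 368 and 397 in the young adult pools and 340 and 293 in the aged pools. The groups did not overlap, and the aged values were the lower ones, but the aged pair was spread over a range wider than the gap between groups. The mean was 383 ± 20.4 in young adult and 316 ± 32.9 in aged mice (SD, n = 2), and the log2 difference of −0.28 (SE 0.12, FDR = 0.456 by limma), with a 95% interval from −0.63 to 0.07, did not pass the criteria. Without aged array 2 the log2 difference was −0.17.

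*Gdnf* encodes the glial cell line-derived neurotrophic factor, the ligand of GFRα1. Its level, over 2 probes, was 39.1 and 33.3 in the young adult pools and 26.4 and 31.1 in the aged pools. The aged values were again the lower ones without overlap, with a log2 difference of −0.33 (SE 0.15, FDR = 0.473 by limma) and a 95% interval from −0.77 to 0.11. The first probe gave 71.4 and 54.9 in young adult and 44.9 and 65.0 in aged mice, where the groups overlapped. The second probe was not well above background on any array, so that its fitted difference, plotted with the other probes, is not read as a fold change. The first probe alone gave a log2 difference of −0.21 (FDR = 0.76 by limma), and with the processed intensity scaled to the 75th percentile the difference of the gene turned to 0.041.

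**Figure D1:**
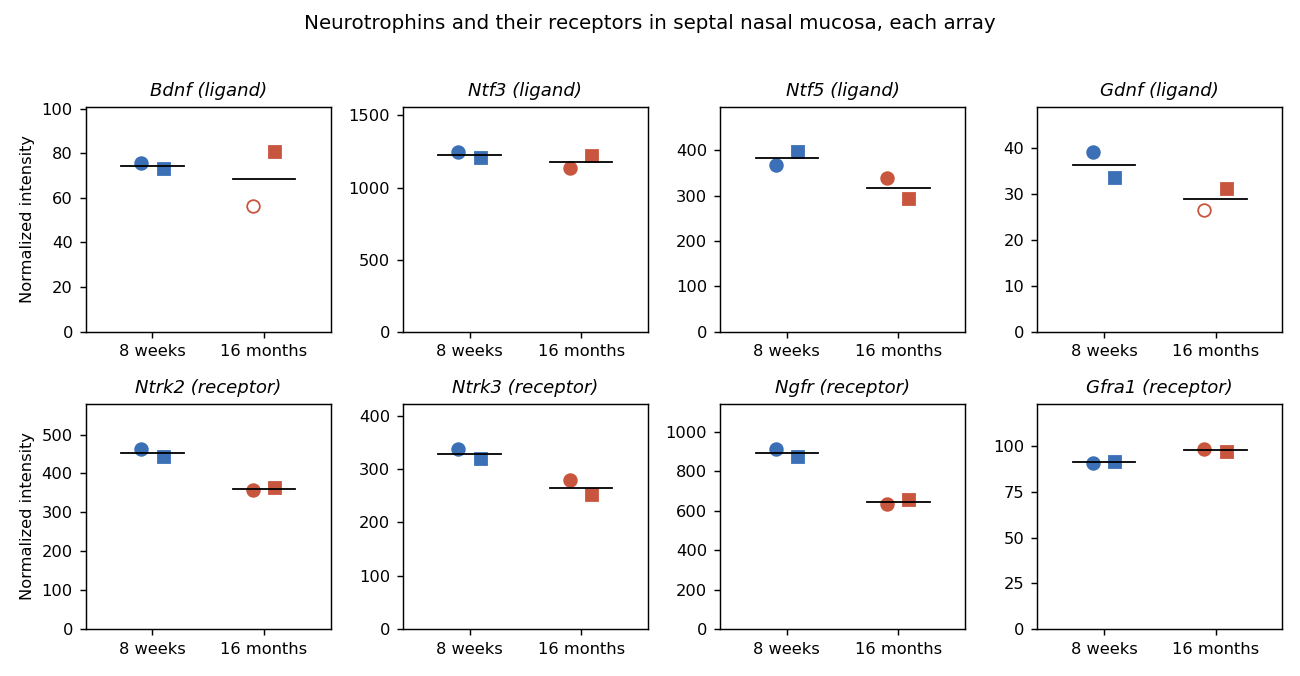
Normalized intensity (linear axis from 0) of the 4 ligand genes in the upper row and the 4 receptor genes in the lower row, on 2 arrays of 8-week-old and 2 arrays of 16-month-old mice. Circles are array 1 and squares array 2 of an age, lines are means, and an open symbol means that no probe of the gene was well above background on that array. The aged arrays of *Ngfr*, at 634 and 653, sit clearly below the young adult arrays, at 914 and 870, whereas *Bdnf* and *Ntf3* overlap.

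Among the receptors, *Ngfr* encodes p75, which belongs to the tumor necrosis factor receptor family and has no kinase of its own. Its level was 914 and 870 in the young adult pools and 634 and 653 in the aged pools. The aged pools were far below the young adult pools, with a gap several times the distance between arrays of one age. The mean was 892 ± 30.6 in young adult and 643 ± 13.5 in aged mice (SD, n = 2). The log2 difference was −0.47 (SE 0.08, 95% interval −0.71 to −0.23, FDR = 0.233 by limma), and *Ngfr* was the gene of the 8 that passed the criteria. The result rests on 1 probe, which was well above background on all 4 arrays. Its change was below the 1.5-fold limit that the methods add for a differentially expressed gene. On the slide that held both ages the log2 difference was −0.53, and between the other 2 arrays it was −0.41. With the array number as a block, *Ngfr* missed the FDR limit (FDR = 0.433 by limma), though same-numbered arrays are not stated to be paired. The call was lost whenever 1 array was left out (log2 difference −0.51 to −0.43, FDR 0.417 to 0.677 by limma), when 0 of all genes passed and 3294 to 5291 had an unadjusted P below 0.05, and with the processed intensity scaled to the 75th percentile (FDR = 0.274 by limma).

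The genes whose levels over the 4 arrays followed that of *Ngfr* most closely, among 15469 candidates with a RefSeq symbol and a mean level of at least 100, were *Col13a1*, *Ccna2* and *S1pr3*. The root mean square distance of their centred log2 levels from those of *Ngfr* was 0.00787, 0.00936 and 0.012. *Col13a1* encodes a transmembrane collagen, *Ccna2* a cyclin of the cell cycle and *S1pr3* a receptor for sphingosine 1-phosphate. With 4 arrays, many patterns lie close to any given one, and the likeness is given as a description.

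*Ntrk2* encodes TrkB, the receptor kinase for BDNF and neurotrophin 4/5, and also a truncated form without the kinase domain. Its level, averaged over 2 probes, was 463 and 443 in the young adult pools and 358 and 362 in the aged pools. Every aged value was below every young adult value, and the gap was wider than the spread at either age. The mean was 453 ± 14.2 in young adult and 360 ± 2.84 in aged mice (SD, n = 2). The log2 difference was −0.33 (SE 0.08, 95% interval −0.56 to −0.10, FDR = 0.291 by limma), which passed on P and missed the FDR limit. With the processed intensity, the difference was −0.14 (75th percentile scaling) or −0.12 (quantile normalized).

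The probes of *Ntrk2* differed in what they could measure. The probe designed on NM_008745, the record of the truncated form, gave 4330 and 4449 in the young adult pools and 3350 and 2902 in the aged pools. It was well above background on all 4 arrays, and the groups did not overlap. Its mean was 4389 ± 84.0 in young adult and 3126 ± 317 in aged mice (SD, n = 2), a difference of −29.0% (log2 difference −0.49, FDR = 0.266 by limma). The probe designed on NM_001025074, the record of the full-length kinase form, gave 49.5 and 44.1 in young adult and 38.3 and 45.3 in aged mice. It was well above background on 1 young adult array and on 0 aged arrays, the groups overlapped (FDR = 0.646 by limma), and no fold change is read from it. The files do not say which exon a probe lies in, and whether the ages differ in the ratio of the 2 forms was not tested. For genes with a dim probe such as this one, the average over probes mixes a measured difference with one near background. Between the aged arrays the probes of *Ntrk2* moved in opposite directions, which narrowed the spread of their average. The SE of the log2 difference was 0.11 for the bright probe alone and 0.08 for the average.

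*Ntrk3* encodes TrkC, the receptor kinase for neurotrophin 3. Its level, averaged over 4 probes, was 338 and 320 in the young adult pools and 279 and 251 in the aged pools. No aged value reached a young adult value, and the gap was wider than the spread at either age. The mean was 329 ± 12.7 in young adult and 265 ± 19.8 in aged mice (SD, n = 2). The log2 difference was −0.31 (SE 0.10, 95% interval −0.61 to −0.02, FDR = 0.362 by limma), which passed on P and missed the FDR limit.

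The first 3 probes of *Ntrk3* were well above background on all 4 arrays, and by each of them the aged values were the lower ones without overlap. The probe with the largest difference gave 590 and 538 in young adult and 381 and 408 in aged mice (log2 difference −0.51, FDR = 0.237 by limma). The next gave 964 and 843 in young adult and 664 and 635 in aged mice (log2 difference −0.47, FDR = 0.272 by limma). Another gave 417 and 419 in young adult and 315 and 302 in aged mice (log2 difference −0.44, FDR = 0.228 by limma). The 3 differences thus lay within 0.1 of each other on the log2 scale, and 2 of them passed the criteria. The fourth probe gave 54.9 and 54.9 in young adult and 75.6 and 50.4 in aged mice, with its higher value on an array where it was not well above background. It was well above background on 1 young adult array and on 0 aged arrays, and its fitted difference is not read as a fold change. RefSeq lists 13 transcripts of *Ntrk3*, and its 4 probes were designed on 2 of these records. Both records were represented among the 3 probes that were measured throughout.

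A further setting left out dim probes, meaning those that neither age showed well above background on each of its arrays. Of the 8 genes, this removed the second probe of *Gdnf*, the dim probe of *Ntrk2* and the fourth probe of *Ntrk3*. The probe of *Bdnf*, the first of *Gdnf* and the second of *Gfra1* stayed, although each was well above background on only 1 aged array. The log2 difference became −0.49 for *Ntrk2* (FDR = 0.0747 by limma) and −0.48 for *Ntrk3* (FDR = 0.0485 by limma). It stayed at −0.47 for *Ngfr* (FDR = 0.0450 by limma). In that setting 3 of the 8 genes passed the criteria, all lower in aged mice, and 12.6% of the 29495 genes left passed in that direction, with 11.7% in the other.

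*Gfra1* encodes the GDNF-binding coreceptor of RET, which is held at the membrane by a lipid anchor. Its level, over 2 probes, was 91.0 and 91.3 in the young adult pools and 98.5 and 97.0 in the aged pools. The aged values were the higher ones, by a small step. The mean was 91.2 ± 0.195 in young adult and 97.7 ± 1.0 in aged mice (SD, n = 2), 7.23% higher. The log2 difference of 0.10 (SE 0.07, 95% interval −0.12 to 0.32, FDR = 0.630 by limma) did not pass the criteria, and it was 0.06 without background correction. The probes of *Gfra1* gave log2 differences of 0.08 and 0.12. The second of them was well above background on 1 of the aged arrays.

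**Figure D2:**
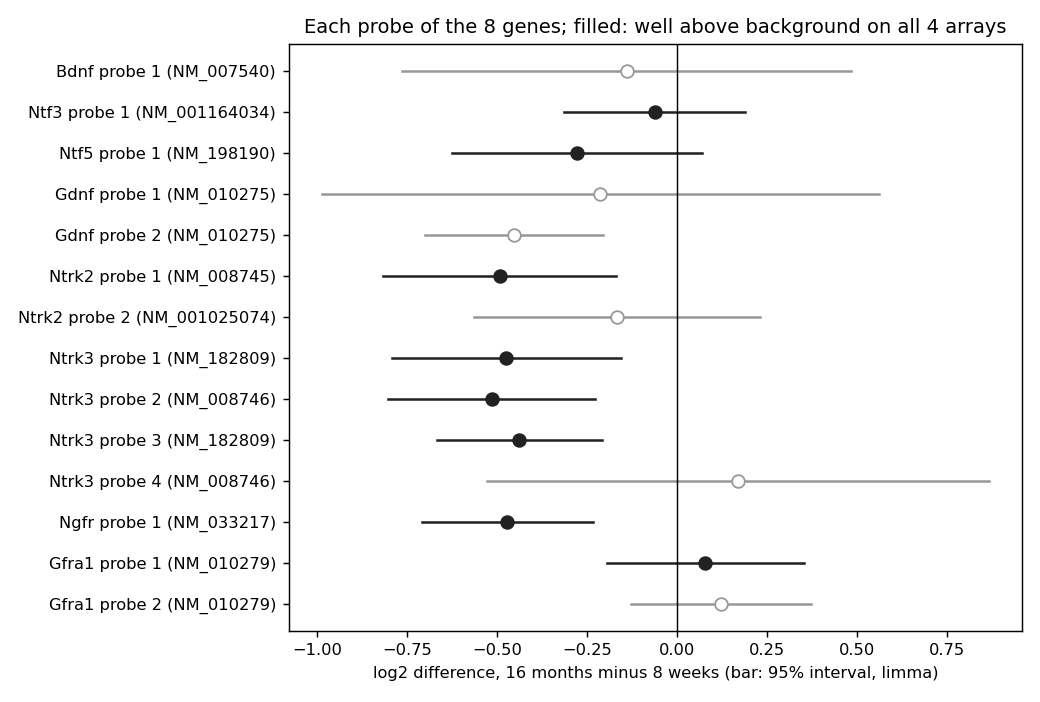
The log2 difference of each of the 14 probes (horizontal axis, 16 months minus 8 weeks), with 95% intervals from limma, labelled by gene and RefSeq record. Filled points are the 8 probes well above background on all 4 arrays and open points the others. The filled probes of *Ntrk2*, *Ntrk3* and *Ngfr* lie between −0.51 and −0.44, and the wide intervals belong to open points.

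By probe, the aged values were the lower ones without overlap in 7 of 14, against 22.0% of all probes. The criteria were passed as lower by 4 of 14, against 2.65% of all probes, and as higher by 0 (limma), against 1.84%. Of these 4, 2 belonged to *Ntrk3*, 1 to *Ngfr* and 1 was the *Gdnf* probe that was not well above background on any array. Probes of one gene share its transcripts and are not independent.

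By role, the 4 ligands had a median log2 difference of −0.21 (range −0.33 to −0.06) and the 4 receptors of −0.32 (range −0.47 to 0.10). The median of all genes tested was 0.01. All aged values were below all young adult values in 5 of the 8 genes, against 21.8% of all genes, and above them in 1, against 24.2% of all genes. Among the 5, *Gdnf*, which also sets the lower end of the ligand range, was separated only through the probe that was not well above background, and its other probe overlapped. In the remaining 2, both ligands, the groups overlapped. The ranges of ligands and receptors overlapped, and a difference between the roles was not tested.

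**Figure D3:**
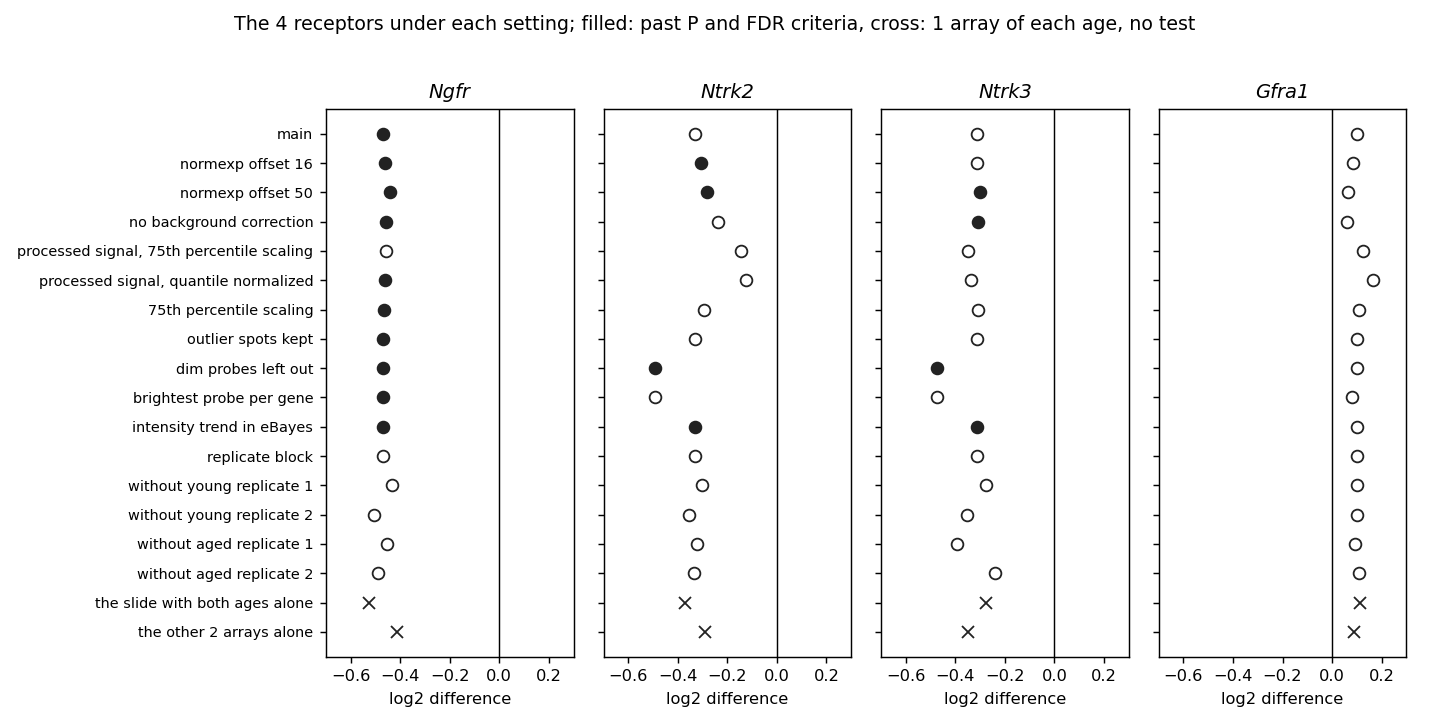
The log2 difference (16 months minus 8 weeks) of the 4 receptor genes under each processing setting, one row per setting. Filled points passed both criteria, open points did not, and crosses compare 1 array of each age without a test. *Ngfr* stays between −0.53 and −0.41 and *Gfra1* above 0 throughout, whereas *Ntrk2* and *Ntrk3* move to −0.49 and −0.48 when dim probes are left out and *Ntrk2* shrinks to −0.14 and −0.12 with the processed signal.

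The rest of the pathway was described with lists of 97 further genes, of which 85 were well above background on all 4 arrays. Of the 97, 4 were lower and 2 higher at both criteria, against 2.33% and 1.65% of all genes, and the median log2 difference was −0.07. Of the 10 other ligands, 0 passed by limma, and 1 had an unadjusted P below 0.05. This was *Ptn*, which encodes the heparin-binding factor pleiotrophin, with 6487 and 5906 in young adult and 4578 and 4632 in aged mice (log2 difference −0.43, FDR = 0.268 by limma). Of the GDNF relatives, *Nrtn* (neurturin) had a log2 difference of 0.10, *Artn* (artemin) had −0.12, and the probe of *Pspn* (persephin) never rose well above background.

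Of the 15 other receptors, 0 passed by limma and 0 had an unadjusted P below 0.05. *Ret*, the kinase through which GFRα1 signals, had a level of 275 and 287 in young adult and 247 and 283 in aged mice, with overlapping groups and a log2 difference of −0.09. *Sort1*, which encodes sortilin, the partner of p75 for precursor forms, had a log2 difference of −0.19 (FDR = 0.524 by limma), and its 3 probes gave −0.03, −0.38 and −0.17. The coreceptors *Gfra2*, *Gfra3* and *Gfra4* had log2 differences of −0.25, −0.13 and −0.14.

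Among 13 genes for partners of p75 and proteins related to it, 5 had lower and 8 higher means, and 1 passed the criteria. This was *Tnfrsf19*, which encodes TROY, a receptor of the same family that can take the place of p75 in the Nogo receptor complex. Its level was 3090 and 3156 in young adult and 2175 and 2251 in aged mice. The aged values were far below the young adult values (log2 difference −0.50, SE 0.08, FDR = 0.217 by limma), and its 2 probes gave −0.49 and −0.51. *Lingo1*, a further part of that complex, had a log2 difference of 0.22 (FDR = 0.439 by limma).

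Among 11 genes for proteases and inhibitors that act on the precursors, 8 had lower and 3 higher means, and 1 passed. This was *Mmp9*, a matrix metalloproteinase that can cleave precursor neurotrophins and also degrades extracellular matrix. Its level was 444 and 451 in young adult and 230 and 174 in aged mice, a log2 difference of −1.16 (SE 0.17, FDR = 0.211 by limma), and its probes gave −1.46 and −0.86. The convertase gene *Furin* had a log2 difference of −0.17 (FDR = 0.600 by limma), and *Plat*, which encodes the tissue plasminogen activator, had 0.21 (FDR = 0.445 by limma). Of the 33 adaptors and kinases, 0 passed by limma, with 18 lower and 15 higher means, and 2 had an unadjusted P below 0.05. These were *Plcg1*, which encodes the phospholipase recruited by Trk receptors (log2 difference −0.35, FDR = 0.279 by limma), and *Grb10*, which encodes an adaptor of receptor kinases (−0.55, FDR = 0.286 by limma).

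Of 15 genes known to respond to neurotrophins or neuronal activity, 7 had an unadjusted P below 0.05 by limma. At both criteria, 2 were lower and 2 higher, against 2.33% and 1.65% of all genes. *Egr1* and *Egr2*, immediate early transcription factors, fell by 0.43 (FDR = 0.249 by limma) and 0.67 (FDR = 0.246 by limma) on the log2 scale. The level of *Egr2* was 587 and 704 in young adult and 402 and 406 in aged mice. *Npas4*, an activity-dependent transcription factor, rose by 0.78 (FDR = 0.201 by limma), from 243 and 237 to 389 and 440. *Nptx2*, a secreted pentraxin of synapses, rose by 0.49 (FDR = 0.218 by limma), from 1071 and 1033 to 1477 and 1480. *Fos* (−0.41), *Arc* (−0.25) and *Nr4a1* (−0.25) missed the FDR limit but were also lower at an unadjusted P below 0.05 by limma. Of all genes, 7.08% were lower at that P. The 15 genes also answer to stimuli other than neurotrophins, and 8 of them had lower and 7 higher means.

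**Figure D4:**
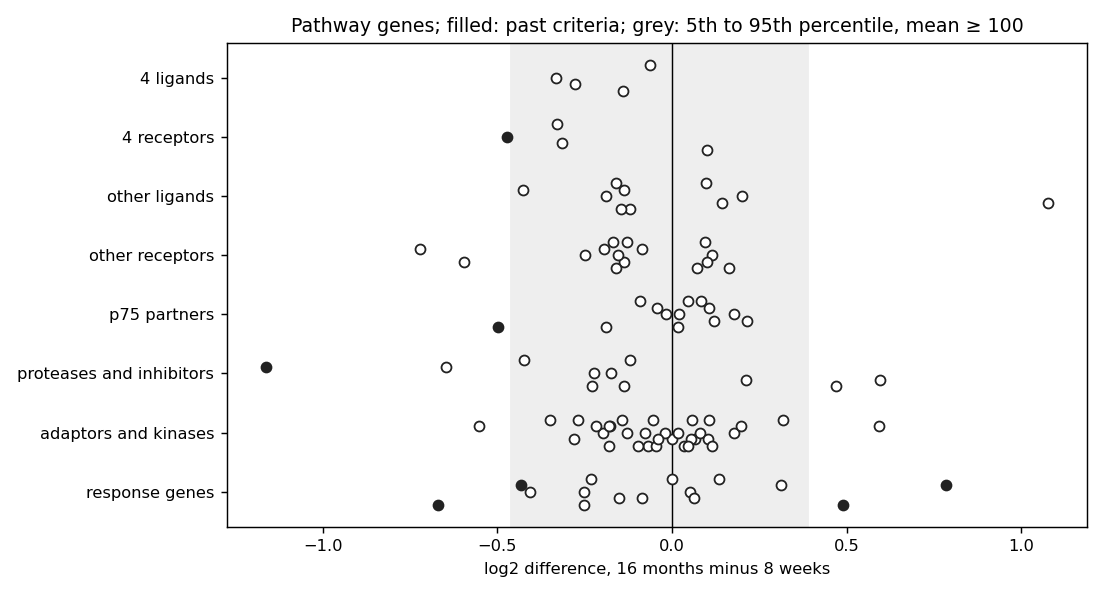
The log2 difference (horizontal axis, 16 months minus 8 weeks) of every gene in the 4 ligands, the 4 receptors and 6 lists of further pathway genes, 1 point per gene. Filled points passed both criteria, and the grey band spans the 5th to 95th percentile of genes with a mean level of at least 100, from −0.46 to 0.39. *Ngfr*, at −0.47, lies just below the band, and the other 7 of the 8 genes lie within it.

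Since the mucosa was measured as a whole, fewer cells of a type and less RNA per cell cannot be told apart. Some marker genes of cells that can carry these receptors passed the criteria, others did not, and not all had the same direction. Of 12 markers of Schwann and olfactory ensheathing cells, the glia of the olfactory nerve, 11 had lower means in aged mice and 5 passed the criteria as lower (among them *Fabp7*, *Mbp*, *Npy* and *Prx*), while *Cdh19* passed as higher. Their summed level ranged from 37872 to 38623 in young adult and from 26841 to 28357 in aged mice, with a median log2 difference of −0.39. Such sums, here and below, follow mostly the genes with the brightest probes, in this list *Fabp7* and *S100b*. The gene for the glial transcription factor SOX10, *Sox10*, had a level of 4840 and 4624 in young adult and 4325 and 4694 in aged mice, with overlapping groups. The part of these cells in the lower level of *Ngfr* was not tested.

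Of 5 markers of basal cells, 4 had lower means and 2 passed (*Krt5* and *Krt15*), with a summed level of 38064 to 38535 in young adult and 28024 to 28584 in aged mice. Here the gene for the basal cell transcription factor p63, *Trp63*, had a log2 difference of 0.05. Of 9 fibroblast markers, all had lower means and 6 passed, with a median log2 difference of −1.02 and a summed level of 238341 to 263144 in young adult against 124047 to 132325 in aged mice. Markers of endothelial cells (5 of 9 lower at both criteria), muscle and pericytes (4 of 9), macrophages (3 of 9), bone (5 of 7), cartilage (2 of 6) and proliferation (4 of 6) also passed as lower, against 2.33% of all genes. Their part in the levels of *Ngfr*, *Ntrk2* and *Ntrk3* was not tested.

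Neuronal markers did not all share this direction. The 11 markers of mature ORNs all had higher means in aged mice, with 1 past the criteria (*Stoml3*) and a median log2 difference of 0.15, and their summed level was 575157 to 584079 in young adult and 637778 to 645508 in aged mice. The 7 markers of immature ORNs all had lower means, with 0 past the criteria by limma, 4 at an unadjusted P below 0.05 (*Gap43*, *Gng8*, *Stmn2* and *Tubb3*) and a median of −0.25. Of 6 globose basal cell markers, 4 had lower and 2 higher means, and *Kit* passed as lower. Of 5 sustentacular cell markers, 1 had a lower and 4 higher means, *Cyp1a2* passed as higher, and the summed levels overlapped between ages. Among the 5 markers of ciliated cells, the 3 measured of the vomeronasal organ and the 7 of brain neurons, 0 passed by limma, with *Dnah5*, *Gnai2*, *Vmn2r1* and *Th* at an unadjusted P below 0.05. Of 8 pituitary markers, *Gh* and *Prl* passed the criteria as higher, no other marker of the list passed, and 3 never rose well above background. The summed level of the 8 genes was 1182 to 1244 in young adult and 9312 to 9835 in aged mice. This sum followed mostly *Prl*, with 282 and 238 in young adult and 8155 and 7969 in aged mice, and does not describe the list as a whole. The part of such tissue in the levels of the neurotrophin genes was not tested.

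**Figure D5:**
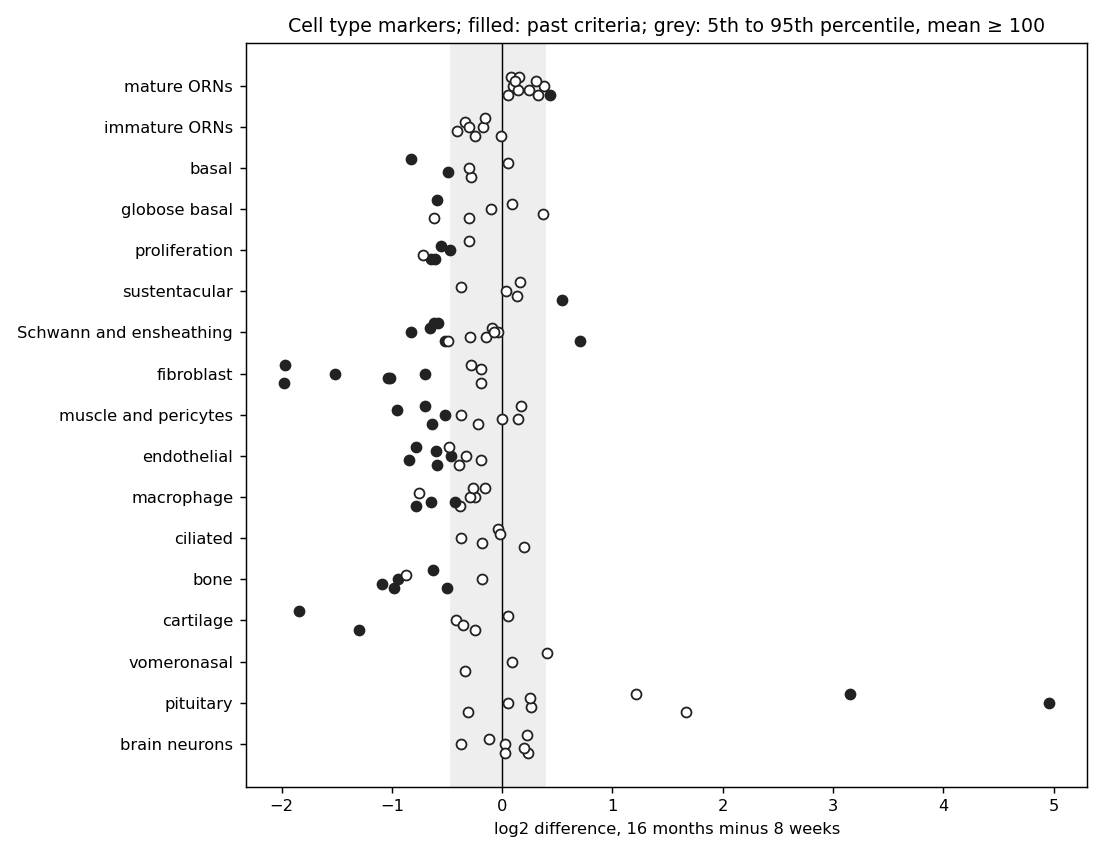
The log2 difference (horizontal axis, 16 months minus 8 weeks) of each marker gene in 17 cell type lists, 1 point per gene. Filled points passed both criteria, and the grey band spans −0.46 to 0.39 as in the plot of pathway genes. Glial, fibroblast, vessel and bone markers lie mostly below 0, with a median of −0.39 for the glial list, and mature ORN markers lie above 0.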

How the data were processed

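Septal nasal mucosa RNA was measured on 4 Agilent one-color arrays. The authors used Feature Extraction 11.0.1.1 to read the spots, and deposited spot and background intensity, a processed intensity and quality flags (other values), without normalization between arrays. The deposited series table held the same processed intensity for all 62976 spots. The submitters' processing notes also list R 3.2.1.

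Median spot and background intensities were corrected by normexp with an offset of 0 (limma 3.58.1, R 4.3.3), since the sources used here name no background method. Control spots and outlier-flagged spots (88 to 118 per array) were then dropped, spots of a probe averaged (300 probes had several), log2 values quantile normalized, and probe values averaged by gene. Of 56605 probes, 32988 (58.3%) matched a RefSeq symbol of GRCm38.p6 by accession without version, and the others kept the array's identifier. The array design uses another build, so only promoter coordinates are given. Ages were compared with lmFit and eBayes without covariates, and the criteria, taken from the methods, were P below 0.05 and FDR below 0.25 (Benjamini-Hochberg, over all genes). The methods also ask for a mean level of at least 100 and a 1.5-fold change, which were not part of these criteria. The genes that passed here are therefore not the differentially expressed genes of the study. *Bdnf*, *Gdnf* and *Gfra1* had mean levels below 100. The fit was tested on simulated data.

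The genes, lists and rules were chosen with earlier results of these data known. Named were the 8 genes, their probes, further genes listed in advance by name, genes of a list that passed the criteria, and the 3 genes most like *Ngfr*. *Lingo1*, *Furin*, *Plat*, *Sox10*, *Trp63* and the genes named for an unadjusted P below 0.05 were added from the lists after their values were seen. The number of arrays, and signal over background, limits the precision. Alternatives were other background offsets, none, the processed intensity, 75th percentile scaling, flagged spots kept, dim probes left out, the brightest probe, single probes, an intensity trend, a replicate block, single slides, each array left out and other FDR limits. A description in the labels naming another tissue and exposure matched no title and was not used. Some genes of the lists are counted but not reported here by name.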

Additional observations from a re-analysis of the deposited data

How the results depend on the processing

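*Ngfr* was lower in aged mice in all 17 settings tried and passed the criteria in 9 of the 15 with a test. *Ntrk2* was lower in 19 of 19 settings (past the criteria in 4 of 17), *Ntrk3* in 20 of 21 (6 of 19) and *Ntf5* in 17 of 17 (1 of 15), and *Gfra1* was higher in 19 of 19 (0 of 17). The settings reuse the same 4 arrays, so these counts are no independent support. With the ages separated on all arrays, single slides or 1 array left out could hardly change the sign for *Ngfr* or *Gfra1*. As *Ngfr* has 1 probe, leaving out dim probes, the brightest probe, the trend and the block kept its estimate at −0.47. All FDR values here are from limma, and the causes of the changes were not tested, except that fewer arrays leave fewer degrees of freedom.

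*Ntrk2* passed at an offset of 16 (log2 difference −0.31, FDR 0.248), an offset of 50 (−0.28, FDR 0.171), without dim probes (−0.49, FDR 0.0747) and with an intensity trend (−0.33, FDR 0.0854). With the processed intensity its difference shrank to −0.14 (75th percentile scaling) and −0.12 (quantile). *Ntrk3* passed at an offset of 50 (−0.30, FDR 0.184), without background correction (−0.31, FDR 0.210), without dim probes (−0.48, FDR 0.0485), with a trend (−0.31, FDR 0.178) and with probe 2 (−0.51) or probe 3 alone (−0.44), and the fitted value of its dim probe 4 alone turned to 0.17. *Ntf5* passed with the quantile-normalized processed intensity (−0.28, FDR 0.230), and *Gdnf* with probe 2 alone (−0.45), which was not well above background on any array. Fitted values of dim probes are not fold changes. Scaling the processed intensity to the 75th percentile turned *Gdnf* to 0.041 and left *Ngfr* at −0.46 (FDR 0.274). It moved the median of all genes to 0.07.

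The genes of the 8 called lower numbered 2 at an offset of 16, without background correction and with the quantile-normalized processed intensity, 3 at an offset of 50, without dim probes and with a trend, and 0 with the processed intensity at the 75th percentile. All genes called lower and higher numbered 1063 and 754 as reported, 1691 and 1298 at an offset of 16, 2475 and 2107 at an offset of 50, 2239 and 1788 without correction, 2343 and 2029 with the quantile-normalized processed intensity, 3706 and 3445 without dim probes and 3518 and 3612 with a trend. The split between directions shifted with the last of these towards higher calls. Further pathway genes called lower numbered 7, 12, 9, 9, 17 and 22 in the same order, and 2 with either 75th percentile scaling. Those called higher numbered 7 without dim probes and 8 with a trend.

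Same-numbered arrays are not stated to be paired, and their deviations correlated at 0.0817 over 25513 genes. With the replicate block, which leaves the estimates as they are in this balanced design, *Ngfr* (−0.47) lost its call (FDR 0.433), and 0 of the 8, 0 of the further pathway genes and 0 of all genes passed by limma, with 5197 genes at an unadjusted P below 0.05. Leaving out each array in turn, 0 genes passed in any of the 3 sets (3294 to 5291 at an unadjusted P below 0.05), *Ngfr* ranged from −0.51 to −0.43, *Bdnf* from −0.39 to 0.12, *Ntf3* from −0.11 to −0.01, *Ntf5* from −0.39 to −0.17, *Gdnf* from −0.45 to −0.21, *Ntrk2* from −0.35 to −0.30, *Ntrk3* from −0.39 to −0.24 and *Gfra1* from 0.09 to 0.11. The lone array of an age is then assumed to vary like the others. At an FDR below 0.05, 0 genes passed in any set, and below 0.1, 2 genes were lower and 1 higher, with 0 of the 8 and 0 of the further pathway genes (5990 at an unadjusted P below 0.05).

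On the slide that held both ages, the log2 difference was −0.42 for *Bdnf*, −0.13 for *Ntf3*, −0.12 for *Ntf5*, −0.57 for *Gdnf*, −0.37 for *Ntrk2*, −0.53 for *Ngfr* and 0.11 for *Gfra1*. Between the other 2 arrays it was 0.14, 0.010, −0.44, −0.097, −0.29, −0.41 and 0.088 in that order, so *Bdnf* and *Ntf3* changed sign. The slide as a random block, added after seeing the data, could not be fitted, as age and slide leave 0 residual degrees of freedom.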
